A study of Rattus norvegicus with 10 samples.

Results

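Heat shock proteins and their partner chaperones were followed across 10 libraries of rat lung RNA, 5 with the name MOD and 5 with the name XBS. The genes were chosen by symbol in the deposited expression table: the HSP70, HSP110, HSP90, chaperonin (Hspd, Hspe) and small heat shock protein (Hspb) families, the J proteins Dnaja, Dnajb and Dnajc, the BAG cochaperones and the heat shock factors (Hsf). The rule found 85 of 22250 genes, and 75 of these had enough reads to be tested among 14320 genes. The design text describes rats given lipopolysaccharide, from bacterial cell walls, and ovalbumin, an egg allergen, to produce neutrophilic asthma, then a formula abbreviated SP. Neither MOD nor XBS is spelled out in the labels or tied there to SP, and the sources used here do not give strain, sex, age, dose or time. Both groups carry the same other labels: lung tissue, but also the human bronchial line 16HBE, whereas the gene identifiers are rat Ensembl identifiers. The alveolar type 2 cell markers of the lung, such as the surfactant gene Sftpc, summed to between 16440 and 33430 CPM in the 10 libraries. CPM is the read count relative to the library total after scaling between libraries, the usual counts-per-million unit.

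Chaperones bind unfolded proteins and keep them from clumping. HSP70 proteins do this in cycles of ATP use, started by J proteins, which deliver the client, and ended by nucleotide exchange factors such as the BAG and HSP110 proteins; HSP90 takes over many signalling proteins, steroid receptors among them. When unfolded protein builds up in the cytosol, the factor HSF1 binds heat shock elements in promoters and raises the inducible members, while the endoplasmic reticulum uses its own elements and its own HSP70 (Hspa5) and HSP90 (Hsp90b1). In the lung these genes are known to respond to fever, oxidants and inflammation.

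Promoter sequence was available for 68 of the 85 genes (RefSeq, rat build GRCr8, 250 bases before and 50 after the gene start). The heat shock element was searched on both strands as GAA, TTC and GAA in a row with any 2 bases between neighbours; its other strand reads TTC, GAA and TTC. It was found at 5 of the 68 genes (7.35%), Hspa8, Hsph1, Hspd1, Hspe1 and Dnaja1, and in 0.798% of all 33469 promoters of that length. The endoplasmic reticulum stress element, searched on both strands as CCAAT, any 9 bases and CCACG, was found at 3 genes (4.41%, against 0.0657% of all promoters): Hspa5, Hsp90b1 and Dnajc3. The E-box CACGTG, the same on both strands, was found at 7 genes (10.3%, against 6.42%), and no match of this motif overlapped one of the others. The stretches below end at the base before the gene start and are shown because they hold these matches, in capitals, at genes whose values follow; a match is a run of letters and not a measured site. The match at Dnaja1 lay after the gene start and is not shown. Hspd1 and Hspe1 point away from each other and share 1 stretch, in which a pair of overlapping matches gives a single run of capitals.
Hsph1, chr12:10427288-10427367, plus strand, E-box then heat shock element: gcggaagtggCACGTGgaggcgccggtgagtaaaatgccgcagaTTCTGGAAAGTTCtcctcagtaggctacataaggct
Hspa8, chr8:50080299-50080513, plus strand, heat shock elements: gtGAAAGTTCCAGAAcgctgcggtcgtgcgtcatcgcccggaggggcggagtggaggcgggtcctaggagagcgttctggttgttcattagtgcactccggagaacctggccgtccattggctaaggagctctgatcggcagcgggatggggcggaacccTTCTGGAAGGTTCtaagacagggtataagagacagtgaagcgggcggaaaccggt
Hspe1, chr9:64084247-64084326, plus strand, heat shock elements: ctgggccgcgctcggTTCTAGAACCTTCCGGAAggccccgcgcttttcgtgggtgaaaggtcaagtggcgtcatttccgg
Hspa5, chr3:38452956-38453015, plus strand, endoplasmic reticulum stress element: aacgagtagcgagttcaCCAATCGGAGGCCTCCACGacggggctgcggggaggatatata
Hsp90b1, chr7:23012294-23012473, minus strand, endoplasmic reticulum stress elements: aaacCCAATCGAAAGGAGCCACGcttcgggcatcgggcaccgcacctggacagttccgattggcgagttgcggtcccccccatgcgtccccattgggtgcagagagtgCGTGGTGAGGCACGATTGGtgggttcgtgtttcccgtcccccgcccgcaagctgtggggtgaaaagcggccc
Dnajc3, chr15:102432527-102432666, plus strand, endoplasmic reticulum stress element: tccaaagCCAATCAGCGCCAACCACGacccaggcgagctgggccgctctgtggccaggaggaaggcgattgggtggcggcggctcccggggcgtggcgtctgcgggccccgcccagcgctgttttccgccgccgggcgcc

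The constitutive cytosolic chaperones Hspa8 and Hsp90ab1 had the highest levels. On the FPKM scale, which divides the count by gene length and library total, Hspa8, the constitutive cytosolic HSP70, led with 733 ± 127 in MOD and 636 ± 142 in XBS (SD, n = 5). Hsp90ab1, the constitutive HSP90, followed with 714.5 ± 98.0 and 601 ± 114 (SD, n = 5), and the order of these neighbours was not resolved within their spread. The next level held Hspa5, Dnaja1, Hsp90b1, Hspb1 and Hspe1, whose means over all 10 libraries ran from 145 to 180 FPKM. Dnaja4 and Hspd1 came after them with 80.4 and 78.1 FPKM. The place of Hspe1 rests on a listed length of 267 bases, as it averaged 44.5 CPM in MOD and 33.2 CPM in XBS. Inducible Hspa1b stood far down at 8.80 ± 4.64 FPKM in MOD and 6.53 ± 3.23 in XBS (SD, n = 5), and the heat shock factor Hsf1 at 16.1 ± 1.40 and 17.8 ± 2.65 (SD, n = 5). Hsp90aa1, the inducible HSP90, had 5.04 FPKM over all libraries; this gene, Hspa1b and Hspa8 have near-identical copies elsewhere in the genome, so their reads may have been split or dropped by the counting.

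**Figure D1:**
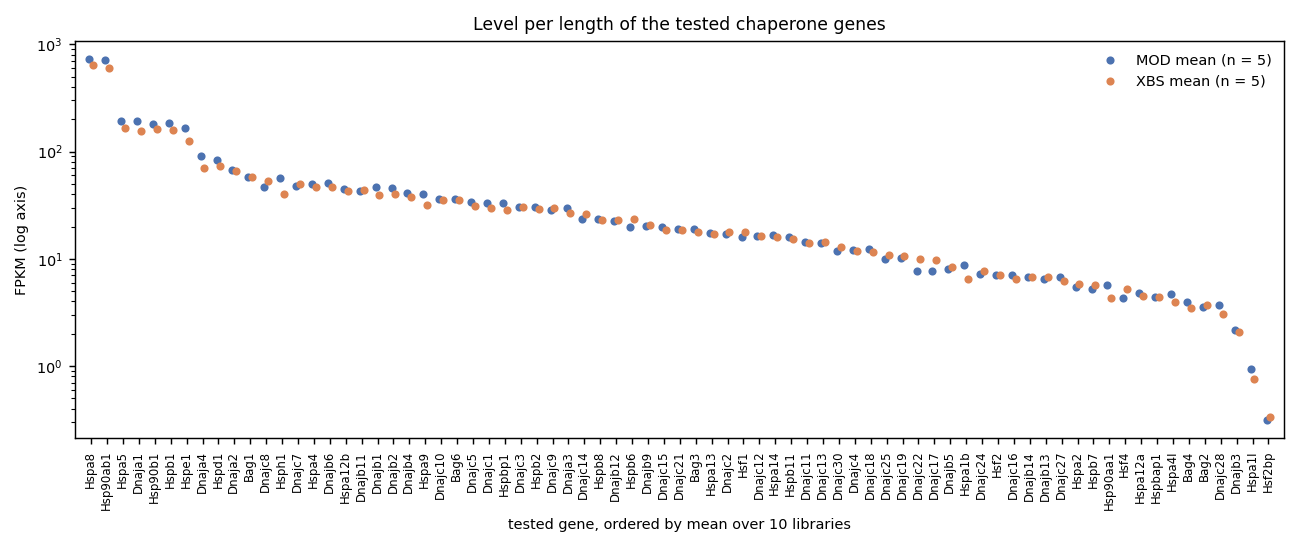
Level of the 75 tested chaperone genes in FPKM on a log axis, as the mean of 5 MOD libraries (blue) and of 5 XBS libraries (orange), ordered by the mean over all libraries. Hspa8 and Hsp90ab1 stand above 600 FPKM and Hsf2bp lowest at 0.32 FPKM, and the 2 group means lie close together at most genes.

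No chaperone gene changed by the test used: by edgeR's quasi-likelihood test of XBS over MOD, 0 of the 75 tested members passed an adjusted p of 0.05 in either direction (adjusted p from 0.287 to 0.982). The background was also thin: 0.0279% of all tested genes passed as higher in XBS and 0.0489% as lower. DESeq2 and limma voom with sample weights called 0 members as well. At an unadjusted p under 0.05, 3 members were lower in XBS (4% of those tested, against 5.78% of all genes) and 1 was higher (1.33%, against 7.4%). In this fit of all 10 libraries the members' shares were therefore no larger than the background. This count of 4 depended on the libraries. It was 1 without XBS 1, 2 without MOD 2, 8 without MOD 3, 11 without MOD 1 and 12 without XBS 4. Of these, in the same order, 1, 2, 7, 9 and 12 were lower in XBS. The counts over all genes in these settings were not split by direction. The count over all genes, 1888, moved as well. That count was 1294 without XBS 1, 1291 without MOD 2, 1375 without MOD 3, 2709 without MOD 1 and 2204 without XBS 4. Without MOD 3 the count over all genes fell while the members' count rose. In the other settings named, both counts moved in the same direction. Fold changes leaned to lower values: 53 of the 75 members had a log2 fold change below 0 (70.7%, against 48.1% of all genes), with a median of -0.067 for members and 0.010 for all genes tested. Members were read from the same libraries, so this lean is a description and not a test. The 95% interval of the log2 fold change lay within 2-fold on both sides for 71 members (94.7%, against 84% of all genes); the other 4 were Hspa1b, Hspa4l, Hsph1 and Hspb7. The 10 untested genes had 15 counts or fewer in any library, among them the testis J protein Dnajb8 with 0 counts in every library.

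**Figure D2:**
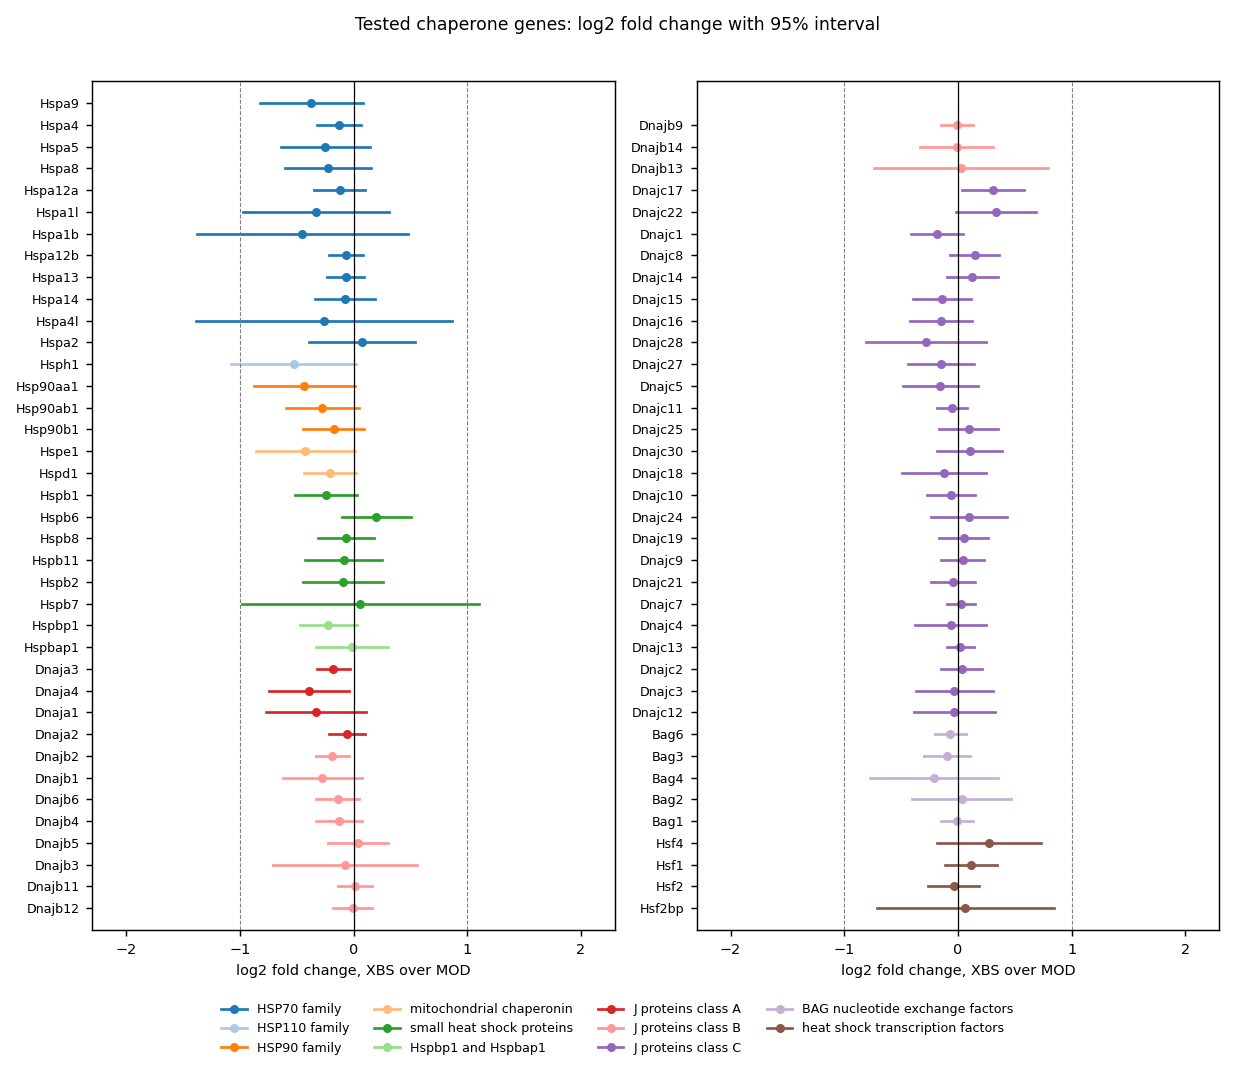
Log2 fold change of XBS over MOD for each of the 75 tested genes (point) with its 95% interval from edgeR (line), coloured by role; dashed lines mark 2-fold changes. Most points lie just left of 0, and 71 of the intervals stay between the dashed lines.

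In the HSP70 and HSP110 families, 12 of 13 tested genes had a fold change below 0 and 0 passed. Hspa8 (ENSRNOG00000034066, chromosome 8, 44990014 to 44993179 by the authors' table, in a build the sources used here do not give) stood at 1193, 1597, 1204, 1379 and 1810 CPM in MOD 1 to 5. In XBS 1 to 5 it stood at 935, 1095, 1600, 1476 and 1027 CPM. XBS 3 and XBS 4 lay inside the MOD range and the other XBS libraries below it. The log2 fold change was -0.23 ± 0.17 (SE, 95% interval -0.61 to 0.15, edgeR adjusted p = 0.572), -0.34 without XBS 3 and -0.13 without MOD 5. Hsph1, the HSP110 exchange factor (ENSRNOG00000000902, chromosome 12, 6322668 to 6341902), showed the lowest fold change of all tested members, -0.53 ± 0.25 (SE, 95% interval -1.07 to 0.02, edgeR adjusted p = 0.393). Its levels were 174, 234, 152, 182 and 249.6 CPM in MOD and 86.0, 109, 116, 230.9 and 145 CPM in XBS. All but XBS 4 lay below the lowest MOD library, and without XBS 4 the value was -0.80, the far end of a range of -0.80 to -0.36 over the alternatives. Hspa9, the mitochondrial HSP70, had means of 116 ± 20.2 (MOD) and 89.9 ± 26.4 CPM (XBS; SD, n = 5, edgeR adjusted p = 0.452). Hspa4, a further exchange factor of the HSP110 type, stood at 190.5 CPM in MOD 1, at 234 to 245 CPM in the other MOD libraries and at 184 to 227 CPM in XBS, and its log2 fold change was -0.13 ± 0.09 (SE, edgeR adjusted p = 0.542).

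Stress-inducible Hspa1b varied more between libraries of a group than between the groups. It stood at 21.1, 39.6, 11.9, 11.2 and 25.5 CPM in MOD and at 7.56, 21.6, 16.2, 25.5 and 8.82 CPM in XBS. The highest library held 5.24 times the level of the lowest, and the spread within groups was at percentile 93.6 of all tested genes. The log2 fold change was -0.45 ± 0.42 (SE, edgeR adjusted p = 0.652), and without MOD 2, the highest library, it was -0.13. Constitutive Hspa8 and Hsp90ab1 sat lower on this scale, at percentiles 66.5 and 56.9. So did inducible Dnajb1 and Hsp90aa1, at percentiles 63.1 and 73.3, while Hspa4l was above Hspa1b at percentile 96.1. The J proteins Dnajc11, Dnajc13 and Dnajc7, named after their values were seen, were at percentiles 0.391, 0.642 and 1.52.

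HSP90 genes had 3 of 3 fold changes below 0, and the mitochondrial chaperonin genes 2 of 2, with 0 passing. Hsp90ab1 stood at 1689, 2151, 1631, 1858 and 2279 CPM in MOD and at 1230, 1458, 1841, 1985 and 1428 CPM in XBS (log2 fold change -0.27 ± 0.15, SE; 95% interval -0.60 to 0.05; edgeR adjusted p = 0.440). XBS 1, XBS 2 and XBS 5 were below every MOD library and the other two inside the MOD range. Hsp90b1, the HSP90 of the endoplasmic reticulum, averaged 586 ± 74.3 (MOD) and 519.6 ± 78.9 CPM (XBS; SD, n = 5). Hspe1, the small lid of the chaperonin (ENSRNOG00000051624, chromosome 9, 61692154 to 61694599), averaged 44.5 ± 11.3 (MOD) and 33.2 ± 8.18 CPM (XBS; SD, n = 5, edgeR adjusted p = 0.388). Its partner Hspd1, the barrel subunit that shares the printed promoter, averaged 187 ± 19.3 and 162 ± 21.8 CPM (SD, n = 5, edgeR adjusted p = 0.422). The pair differed in which library was low: Hspe1 was lowest in XBS 4 (24.4 CPM), where Hspd1 was at 184 CPM, close to its MOD mean.

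**Figure D3:**
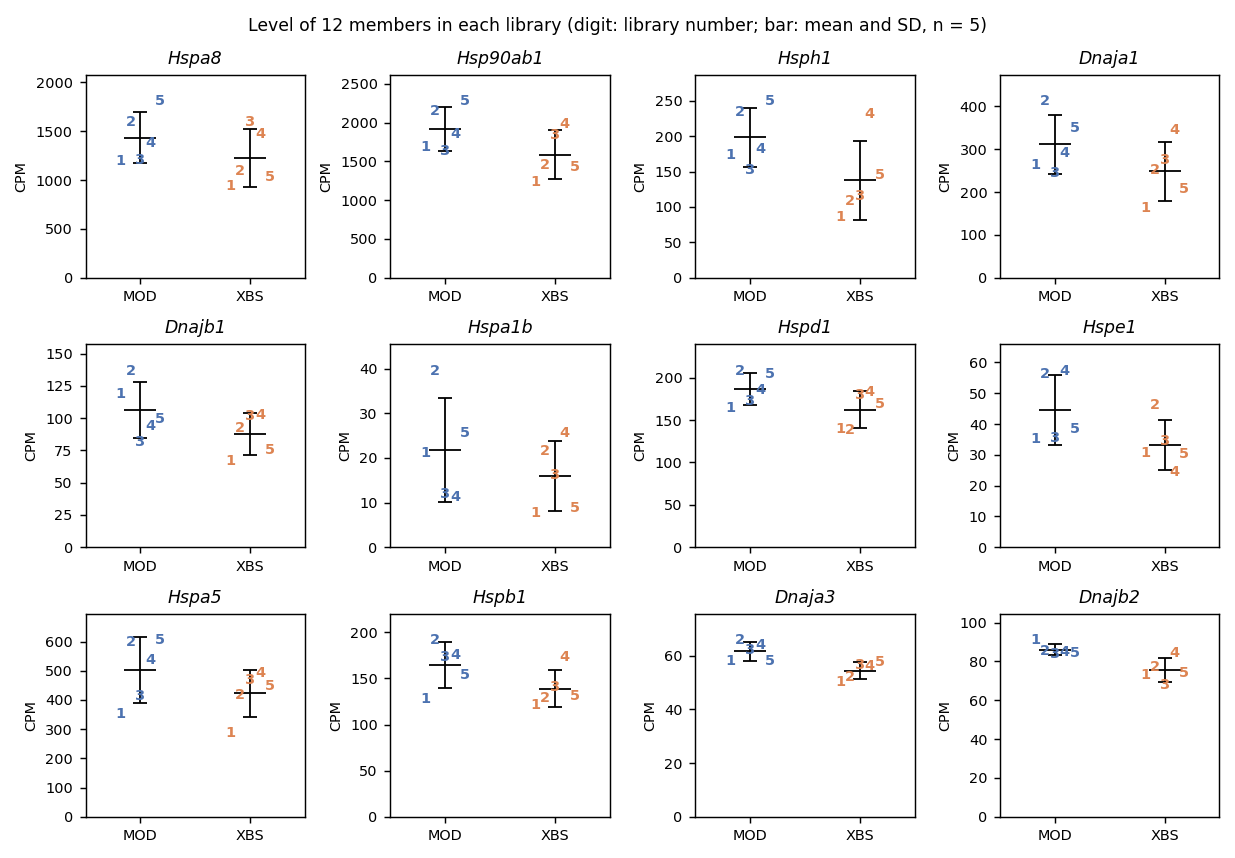
CPM of 12 members in each library, drawn as the library's number (MOD blue, XBS orange) with the group mean and SD as black bars, on axes that start at 0. The groups overlap in every panel except Dnaja3, and XBS 1 is the lowest XBS library in most panels.

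J proteins carried the smallest p-values, and they are also the largest group among the 75 tested members. All 4 tested class A genes had a fold change below 0, as had 8 of 11 class B and 13 of 25 class C genes. None passed by edgeR. At an unadjusted p under 0.05 these classes counted 2, 1 and 1, and all genes tested counted 1888 of 14320. Dnajb2, a J protein that passes clients to the proteasome, had the smallest p, with 91.0, 85.6, 83.9, 85.0 and 84.2 CPM in MOD. In XBS it had 73.0, 77.4, 68.0, 84.6 and 74.1 CPM, so that only XBS 4 reached the MOD range (1.14-fold lower, edgeR adjusted p = 0.287). Dnaja3, the J protein of mitochondria, stood between 57.8 and 65.8 CPM in MOD, with a median of 61.9, and between 50.05 and 57.5 CPM in XBS, with a median of 56.1 (1.13-fold lower, edgeR adjusted p = 0.313). It was the only member whose groups did not overlap with XBS lower (1.33% of members, against 1.13% of all genes), and 0 members did so with XBS higher (against 1.61%). Dnaja1, the main partner of Hspa8, averaged 312 ± 68.9 CPM in MOD and 248.5 ± 68.9 in XBS, and Dnajb1, the inducible partner, 106 ± 21.7 and 87.7 ± 16.0 (SD, n = 5; edgeR adjusted p = 0.483 and 0.462). Dnajc17, a J protein linked to splicing, was the single member higher at an unadjusted p under 0.05: 9.10, 6.71, 7.90, 7.84 and 7.01 CPM in MOD and 10.2, 9.48, 8.55, 9.74 and 9.83 in XBS (1.24-fold, edgeR adjusted p = 0.334). Only MOD 1 overlapped the XBS values of this gene. Dnajc22 averaged 11.4 ± 1.75 (MOD) and 14.4 ± 2.81 CPM (XBS; SD, n = 5, edgeR adjusted p = 0.395).

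Among small heat shock proteins, Hspb1, the ATP-independent holdase HSP27, averaged 164 ± 24.7 (MOD) and 139 ± 20.3 CPM (XBS; SD, n = 5, edgeR adjusted p = 0.425). Hspb6, the smooth muscle member, averaged 26.3 ± 4.09 and 30.2 ± 4.77 CPM (SD, n = 5, edgeR adjusted p = 0.537). Hspb8, the partner of Bag3 in selective autophagy, averaged 42.3 ± 4.75 and 40.3 ± 5.37 CPM (SD, n = 5, edgeR adjusted p = 0.819). Bag3 itself averaged 46.1 ± 5.41 and 43.2 ± 2.98 CPM, with a 95% interval of the log2 fold change from -0.30 to 0.11 (SD, n = 5, edgeR adjusted p = 0.672). Bag6, which guards newly made membrane proteins, averaged 141 ± 8.73 and 135 ± 6.38 CPM, and 4 of the 5 tested BAG genes had a fold change below 0, with 0 passing. Hspbp1, a further exchange factor of HSP70, averaged 48.0 ± 3.54 and 41.1 ± 7.08 CPM (SD, n = 5, edgeR adjusted p = 0.426).

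Of the 4 tested genes named Hsf, which include the HSF2-binding protein Hsf2bp, 3 had a fold change above 0 and 0 passed. Hsf1 stood at 44.5, 37.8, 37.8, 39.0 and 37.2 CPM in MOD and at 46.0, 51.8, 39.2, 37.9 and 37.7 CPM in XBS (log2 fold change 0.11 ± 0.10, SE; edgeR adjusted p = 0.640), and without XBS 2 the log2 fold change was 0.034. MOD 1, XBS 1 and XBS 2 were its 3 highest libraries. Hsf4 averaged 7.50 ± 1.85 and 9.05 ± 2.10 CPM, and Hsf2 18.3 ± 2.09 and 17.8 ± 1.23 CPM (SD, n = 5; edgeR adjusted p = 0.580 and 0.894). Their protein activity, which depends on trimer formation, is not seen in transcript counts.

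Of the genes with a match to the stress element of the endoplasmic reticulum, 3 of 3 had a fold change below 0 and 0 passed, with overlapping 95% intervals. Hspa5, the reticulum HSP70 also called BiP, averaged 501 ± 113 (MOD) and 422 ± 80.2 CPM (XBS; SD, n = 5; log2 fold change -0.25 ± 0.18, SE; edgeR adjusted p = 0.551), and without XBS 1 the log2 fold change was -0.14. Hsp90b1, whose levels are given above, had a log2 fold change of -0.17 ± 0.12 (SE, 95% interval -0.44 to 0.09, edgeR adjusted p = 0.541). Dnajc3, an inhibitor of the kinase PERK, averaged 53.9 ± 8.07 and 52.7 ± 11.0 CPM (SD, n = 5, edgeR adjusted p = 0.946). The reticulum J proteins Dnajb9 and Dnajb11 had 95% intervals of the log2 fold change from -0.15 to 0.13 and from -0.13 to 0.16. All 5 genes with a match to the heat shock element had fold changes below 0, from -0.21 for Hspd1 to -0.53 for Hsph1, and 0 passed. The other members had no match to this exact pattern in the stretch searched, or no promoter sequence. They may hold elements of other form or place. Fold changes below 0 were also found for 53 of all 75 tested members. Hspd1 and Hspe1 enter the count of 5 with the same pair of matches.

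Summed chaperone levels overlapped between the groups. Summed over all 85 genes, MOD libraries held 7607, 9447, 7759, 8546 and 9580 CPM and XBS libraries 6285, 7041, 8348, 8670 and 7278 CPM. XBS 1, XBS 2 and XBS 5 lay below every MOD library, as they did for Hspa8 and Hsp90ab1. These genes make up a large part of the sums. They held 1193 and 1689 of the 7607 CPM in MOD 1, and 935 and 1230 of the 6285 CPM in XBS 1. XBS 1, also the library with the fewest reads, gave the lowest value of the 10 libraries for 19 of the 75 tested members (25.3%, against 10.8% of all tested genes), and XBS 2 for 17 (22.7%, against 17.8%). MOD 2 gave the highest value for 16 members (21.3%, against 10.3%). Of the 17 tested genes on a list of well-known inducible or abundant chaperones and heat shock factors, XBS 1 was lowest for 12.

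**Figure D4:**
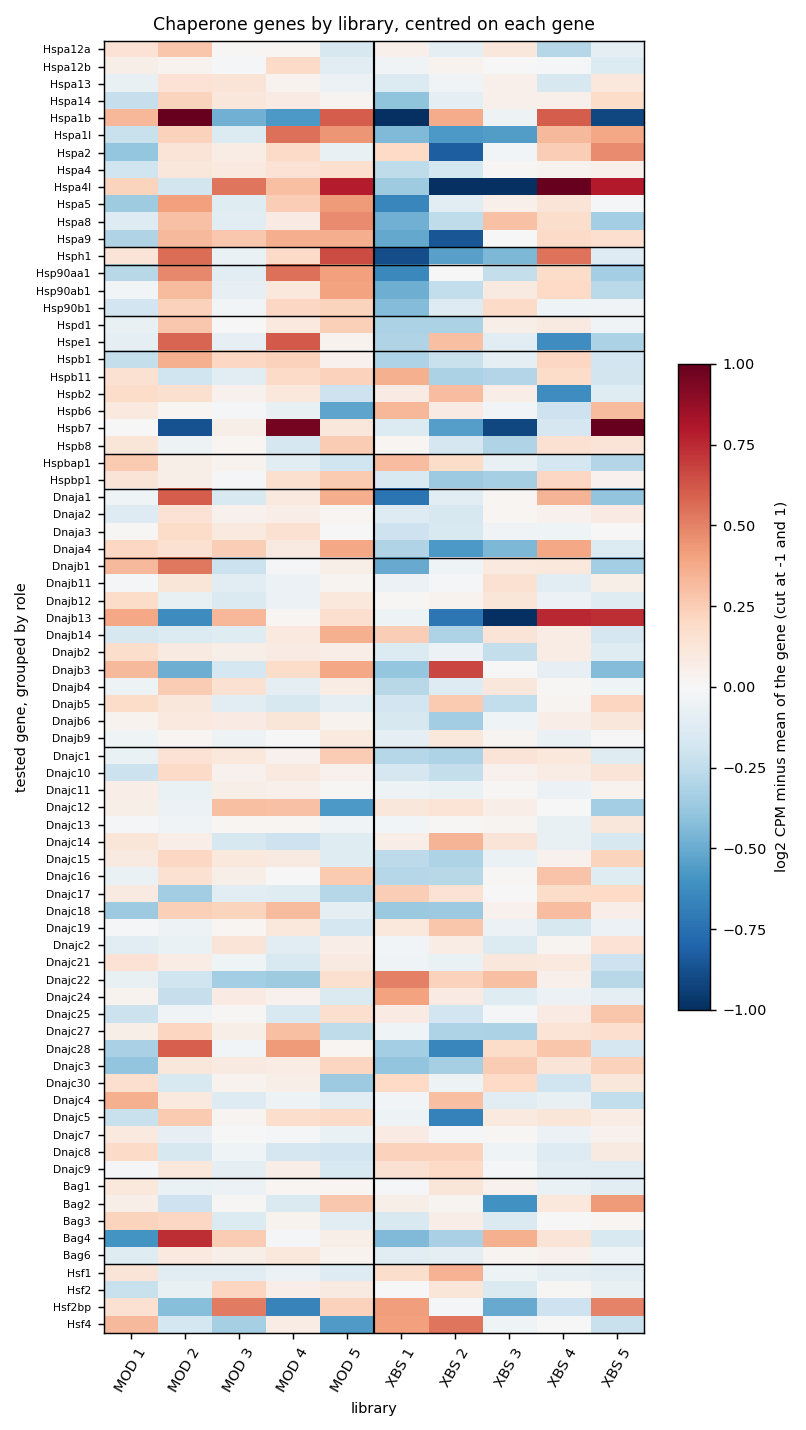
Log2 CPM of each tested gene minus its mean over the 10 libraries, with genes in rows grouped by role and libraries in columns (red above, blue below the mean). XBS 1 is blue for many HSP70, HSP90 and class A genes and MOD 2 is red for many of them, and Hspa4l, Dnajb13, Hspa1b and Hspb7 carry the deepest colours.

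A few members had high or low libraries in common with cell type markers; Hspa4l, Dnajb13, Hspb7 and Hspb3 were named after their values were seen. Hspa4l stood at 20.7, 15.6, 25.8, 21.9 and 30.7 CPM in MOD and at 13.8, 5.11, 6.26, 39.5 and 30.9 CPM in XBS. XBS 2 and XBS 3 were lowest and XBS 4 and XBS 5 highest of all 10 libraries. Dnajb13, a J protein of the motile cilium, had 8.22 and 6.80 CPM in XBS 2 and XBS 3, 23.2 and 23.0 in XBS 4 and XBS 5, and 8.80 to 17.9 in MOD. The 13 ciliated cell markers in the table summed to 788 to 1002 CPM in MOD, to 401 CPM in each of XBS 2 and XBS 3, and to 718, 1239 and 1094 CPM in XBS 1, 4 and 5. Of the 12 tested, 11 had a fold change below 0 and 0 passed, and none was at 0 in every library. Tppp3 alone held 363 to 507 CPM of the MOD sums, and 296 and 302 CPM of those in XBS 2 and XBS 3. Other markers differed in size of change. Hydin stood at 37.8 to 71.6 CPM in MOD and at 10.7 and 9.56 CPM in XBS 2 and XBS 3. Ccdc39 stood at 29.8 to 47.6 CPM in MOD and at 26.7 and 21.5 CPM in XBS 2 and XBS 3. Without XBS 2 and XBS 3 the log2 fold change of Hspa4l turned from -0.26 to 0.29. Dnaja4, the class A gene with the largest fold change (-0.39 ± 0.16, SE, edgeR adjusted p = 0.342), was also low in XBS 2 (96.2 CPM) and XBS 3 (105 CPM) against 152 to 188 CPM in MOD, and without them it was at -0.21. Dnaja4 was also below every MOD library in XBS 1 (116 CPM) and in XBS 5 (130.5 CPM), and in XBS 4 it stood at 188 CPM. The ciliated sum was below every MOD library in XBS 1 and above every MOD library in XBS 4 and XBS 5. Hspb7, a small heat shock protein of heart muscle, stood at 27.2 CPM in XBS 5 and 18.6 CPM in MOD 4, against 4.98 to 10.3 CPM in the other 8 libraries. Hspb3, of muscle too, had 10 counts in each of these libraries, 3 in MOD 1 and 0 in the others. The 12 cardiac muscle markers summed to 526 CPM in XBS 5 and 407 CPM in MOD 4, against 41.1 to 113 CPM elsewhere; 6 were tested and 0 passed, none was at 0 in every library, and the natriuretic peptide gene Nppa was at 0 in all libraries but XBS 5. Without XBS 5 the log2 fold change of Hspb7 turned from 0.06 to -0.58, and without MOD 2 to -0.11. In bulk tissue, fewer cells of a type and less RNA per cell cannot be told apart, and the part of these cell types in the values was not tested.

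**Figure D5:**
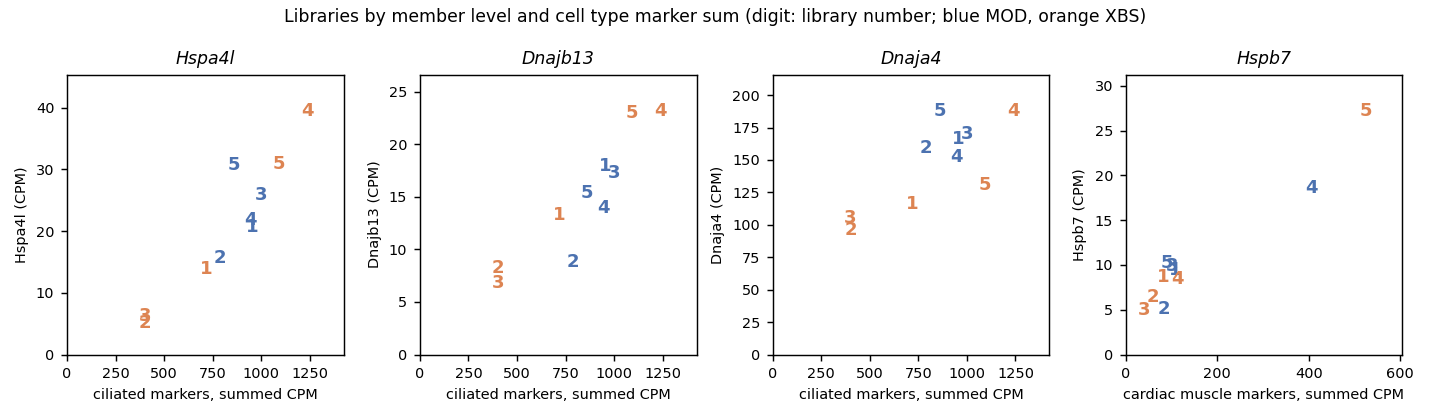
Level of 4 members (CPM, vertical) against the summed CPM of cell type markers (horizontal; ciliated for Hspa4l, Dnajb13 and Dnaja4, cardiac muscle for Hspb7), with each library drawn as its number, MOD in blue and XBS in orange. XBS 2 and XBS 3 sit at the lower left of the ciliated panels, and MOD 4 and XBS 5 at the upper right of the cardiac panel.

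No gene of the other folding lists passed by edgeR. Of 20 tested partner proteins of HSP90 and HSP70, 0 passed; 16 had a fold change below 0, with a median of -0.12, and 2 were lower at an unadjusted p under 0.05, the cochaperones Ptges3 (1.12-fold, edgeR adjusted p = 0.294) and Fkbp4 (1.26-fold, edgeR adjusted p = 0.349). Of 14 tested genes of the cytosolic chaperonin TRiC and of prefoldin, 0 passed, 13 were below 0 and the median was -0.15; Cct6a had means of 119 ± 17.5 (MOD) and 99.0 ± 7.22 CPM (XBS; SD, n = 5, edgeR adjusted p = 0.315). Of 26 tested genes of folding and the unfolded protein response in the endoplasmic reticulum, 0 passed, 16 were below 0 and the median was -0.04. Of 10 tested mitochondrial chaperones and proteases, 0 passed by edgeR and 6 were below 0. Clpb, a mitochondrial disaggregase, stood at 33.2, 35.6, 34.8, 31.8 and 34.1 CPM in MOD and at 28.4, 25.0, 27.5, 26.5 and 25.6 CPM in XBS (1.27-fold lower, edgeR adjusted p = 0.0890; DESeq2 adjusted p = 0.000845). Its groups did not overlap.

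Rbm3, an RNA-binding protein made at lower temperature, had a fold change above 0. It stood at 225, 185, 239, 197 and 192 CPM in MOD and at 389, 346, 273, 245 and 293 CPM in XBS, with no overlap (1.49-fold higher, edgeR adjusted p = 0.118; DESeq2 adjusted p = 0.00291). XBS 1, lowest for many chaperones, was its highest library. Cirbp, the related cold-inducible gene, averaged 53.0 ± 7.82 (MOD) and 63.8 ± 18.8 CPM (XBS; SD, n = 5, edgeR adjusted p = 0.526), with XBS 1 again highest at 95.3 CPM. The list also held Rbmx and Srsf5, with log2 fold changes of 0.15 and 0.17 (edgeR adjusted p = 0.566 and 0.7485). XBS 1 was the highest library for these genes too, at 61.6 and 432 CPM. A part of temperature in these values was not tested. Of the 4 genes of this list, 0 passed by edgeR and 4 had a fold change above 0. Of 12 tested ubiquitin and proteasome genes, 0 passed and 11 were below 0. Of 15 tested immediate early genes, which respond fast to stress, 0 passed by edgeR and 13 were below 0; Jun and Zfp36 averaged 404 ± 92.3 and 189 ± 37.6 CPM in MOD and 262 ± 35.4 and 133 ± 18.4 in XBS (SD, n = 5; edgeR adjusted p = 0.154 and 0.185). Both had groups without overlap and passed by DESeq2 (adjusted p = 0.00976 and 0.0299). Jun, Zfp36, Rbm3 and Clpb were named for the smallest p on their lists, so these values are no added support. Groups did not overlap for 1.13% of all tested genes with XBS lower and 1.61% with XBS higher. DESeq2 called 348 of all genes.

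Of the markers tested on 14 cell type lists, 1 passed by edgeR. All 13 tested neutrophil and all 10 tested macrophage markers had a fold change above 0, all 12 tested alveolar type 1 markers one below 0, and 0 of these 35 passed. Endothelial markers had a fold change below 0 in 8 of 10 tested, red blood cell markers in 5 of 6 and alveolar type 2 markers in 7 of 9. It was above 0 in 11 of 12 T cell, 9 of 10 B cell, 7 of 9 smooth muscle, 5 of 7 fibroblast and 5 of 7 mast cell markers, and 0 of all these passed. Neutrophil markers summed to 695 to 955 CPM in MOD and 777 to 1443 CPM in XBS, macrophage markers to 724 to 946 and 867 to 1234 CPM, and alveolar type 1 markers to 9094 to 10450 and 6045 to 9543 CPM, with overlapping groups. None of the markers on these 3 lists was at 0 in every library; of the endothelial ones, Cldn5 was. Of 9 tested markers of club cells, the secretory cells of the small airways, 1 fell, Cyp4b1 (1.58-fold lower, edgeR adjusted p = 0.0104). The 10 in the table summed to 3385 CPM in XBS 2 and 4225 CPM in XBS 3, against 9274 to 13590 CPM in the other 8 libraries. Scgb1a1 alone held 1934 and 2158 CPM of these 2 sums, and 6666 to 10840 CPM in MOD. Scgb3a2 was also low there, at 68.6 and 94.1 CPM against 429 to 634 CPM in MOD. Sftpd stood at 739 CPM in XBS 2 but at 1378 CPM in XBS 3, against 1028 to 1489 CPM in MOD. Cyp4b1 stood at 219 to 273 CPM across all XBS libraries and was lowest in XBS 5. The part of these cell types in the chaperone values was not tested.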

How the data were processed

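Messenger RNA from rat lung was purified, fragmented and made into 10 adapter-ligated libraries, per the labels' protocols. For each gene and library the authors give a count of reads and an FPKM, per the file headers. The deposited counts were whole numbers with totals of 11998979 to 15518929 per library, so that 3 counts equal 0.193 to 0.25 CPM (counting error only). The deposited FPKM equalled count over length and total (largest relative deviation 8.82e-08) and served for levels between genes. The sources used here do not give the aligner, counter, strand setting, annotation or rat build, and the submitters' processing notes name human and mouse builds. Reads of overlapping or antisense genes could therefore not be told apart. Nothing in the labels says that libraries came from separate animals, so p-values measure the spread between libraries, which may be technical. No pair of replicate libraries was as alike as sampling alone would make it.

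Genes passing filterByExpr (minimum count 10, minimum total 15) entered edgeR 4.0.16 in R 4.3.3 with TMM scaling and the robust quasi-likelihood fit and test, over all 14320 genes, XBS over MOD, with Benjamini-Hochberg adjustment and a threshold of 0.05. Standard errors are the fold change over the square root of F, and 95% intervals use the fit's degrees of freedom. Spread within groups is the SD of log2 CPM (prior count 2) about group means. The test was checked on simulated counts. Alternatives were RLE and upper quartile scaling, DESeq2 1.42.0, limma 3.58.1 voom, other filters, the replicate number as a block and left-out libraries.

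Members and lists were chosen with earlier results of these data known. Named members were the 3 of smallest p in each role and 18 fixed genes, of which Hspa1a was not analysed here; of each other list the 2 of smallest p. The values of 1 gene so chosen are not reported here.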

Additional observations from a re-analysis of the deposited data

Results flagged for a closer look

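In 112 groups of 5 libraries, 1 per named gene and group, a single library stood far from the other 4 in 6 cases; chance gives about 1 in 20. In MOD, 5 of the 6 were MOD 1: Hspa9 at 80.8 CPM against 120.0 to 128 in the others, Hspa4 at 190.5 against 234 to 245, Dnajc3 at 40.0 against 55.3 to 61.1, Dnajb2 at 91.0 against 83.9 to 85.6, and Hsf1 at 44.5 against 37.2 to 39.0. Hspa9, Hspa4 and Dnajc3 were low and Dnajb2 and Hsf1 high in that library. In XBS, Hspb7 stood at 27.2 CPM in XBS 5 against 4.98 to 8.63 in the others.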

How the results depend on the processing

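In all 19 alternatives 0 members passed the adjusted threshold; the smallest adjusted p of a named member was 0.0851, for Dnaja4 without XBS 4 (edgeR). The number of all genes passing was 11 and became 348 by DESeq2, 66 by limma voom, 3 without XBS 2 and XBS 3, 0 without MOD 4 and XBS 5 (edgeR, 1340 genes at an unadjusted p under 0.05), and 4 to 15 without single libraries. Members at an unadjusted p under 0.05 numbered 4, and 7 by DESeq2, 8 by limma voom, 7 without a filter, 2 without XBS 2 and XBS 3, and 1 to 12 without single libraries. The counts over all genes moved as well, from 1888 to 2041 by DESeq2, 2525 by limma voom and 2010 without a filter. They were 1613 without XBS 2 and XBS 3, and 1234 to 2709 without single libraries. Replicate numbers are shared by the groups, but same-numbered libraries deviated together with correlations of only -0.12 to 0.33, and number 1 alone matched best with its own number. With the replicate block 1 gene passed in all, 0 members. In that fit 9 members, all lower in XBS, had an unadjusted p under 0.05, as had 2070 of all genes tested in either direction. Hspb7 was then at -0.11 and Dnajb13 at -0.0935.

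Of 1064 fold changes of 56 named genes under alternatives, 35 in 12 genes turned sign, none of them past the threshold before or after. Without single libraries the log2 fold change ran from -0.58 to 0.36 for Hspb7, -0.20 to 0.21 for Dnajb13 (0.205), -0.10 to 0.0552 for Hspbap1, -0.0248 to 0.0482 for Dnajb11, -0.0351 to 0.016 for Dnajb9, -0.006 to 0.0427 for Dnajc13, -0.12 to 0.0527 for Dnajc3, -0.0934 to 0.0104 for Hsf2, -0.15 to 0.0468 for Cryab and -0.43 to 0.0601 for Clu. Without XBS 2 and XBS 3 it was 0.29 for Hspa4l, 0.0582 for Hspb8, -0.0279 for Dnajb11 and 0.21 for Clu; without MOD 4 and XBS 5, -0.29 for Hspb7, 0.021 for Hspbap1, -0.0107 for Dnajb11 and -0.21 for Dnajb13. Limma voom gave -0.14 for Hspb7 and upper quartile scaling 0.0024 for Dnajb9. The cause was not tested. DESeq2 alone called Clpb, Rbm3, Jun and Zfp36. Genes near 3 counts could not be compared at this depth.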
